A study of Danio rerio with 6 samples.

Results

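The brush border is the layer of microvilli on the apical face of enterocytes, the absorptive cells of the intestine. Its membrane carries peptidases and phosphatases that finish digestion at the cell surface, villin bundles the actin filaments in each microvillus, and scaffold proteins with PDZ domains hold transporters and exchangers in place. The expression of 9 genes of this structure was compared between the proximal intestine of zebrafish with short bowel syndrome (SBS) and sham-operated zebrafish. They were taken by gene name as anpepb, enpep, dpp4, cpo, mep1a.1, mep1b, alpi.1, vil1 and pdzk1, and all 9 were present among 12398 gene rows.

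The fish were adult male wild-type Ekk zebrafish, and both groups were harvested 2 weeks after surgery. In SBS fish the mid-intestine had been removed, the distal intestine ligated and the proximal intestine opened through the body wall. In sham fish the abdomen was opened and the bowel was not handled. The methods describe no separation of layers in the resected proximal intestine, so muscle, immune and connective tissue cells may have been sequenced with the epithelium. Samples with the highest RNA concentration had been chosen for sequencing, 3 fish of each group were harvested for it, and the methods do not mention pooling. The count columns of SBS replicate 1 and SBS replicate 2 were equal in all 12488 rows and were counted as 1 library, so 3 sham libraries were compared with 2 SBS libraries, which keep the names SBS replicate 1 and 3. Every count of SBS replicate 1 was an even number. Sham libraries held between 38728394 and 47142289 reads on genes, SBS replicate 1 held 20377652 and SBS replicate 3 held 38867364. Levels are given as RPKM, which divides reads by gene length and by library size, computed from the counts with library sizes scaled by TMM, a normalization that trims extreme genes.

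Apart from alpi.1, the brush border genes were abundant in sham intestine, where 8 of the 9 ranked between 144 and 431 of 12381 genes tested by mean RPKM. Of the 9 genes, 6 had both SBS libraries below all sham libraries, a pattern found in 24.3% of the genes tested, and 0 had both above, which 22.6% of the genes tested had. Carboxypeptidase O (cpo) and the scaffold pdzk1 fell by edgeR's quasi-likelihood test, 2 of 9 genes where 2.06% of all genes were called lower, and 0 rose where 2.49% of all genes were called higher. Calling required a Benjamini-Hochberg adjusted p under 0.05 together with a log2 fold change, SBS over sham, of at least 1.5 in either direction. The median log2 fold change of the 9 genes was -1.78, against 0.00038 over all genes tested. It was under 0 for 8 of the 9 genes, as for 50% of all genes. When libraries were scaled to total reads alone, 7 of the 9 were under 0, with a median of -1.01 against 0.82 over all genes. Under that scaling 6 of the 9 genes had both SBS libraries below all sham libraries, as did 7.64% of all genes. One of the 9, cpo, was included because it fell most among the peptidases in an earlier look at these data, so its part in every count here is a description. Among the other 8 genes, 5 had both SBS libraries below all sham libraries, 5 had an unadjusted p under 0.05 in the lower direction, and the quasi-likelihood test called 1. These 8 genes and the gene lists that follow were also chosen with earlier results of these data known. Their counts beside the shares of all genes are therefore descriptions too. Both the likelihood ratio test of edgeR and the Wald test of DESeq2 called the same 6 genes lower, where these tests called 5.78% and 5.74% of all genes lower. RUVg, which removes 1 factor of unwanted variation, called 4 of the 9 genes lower against 2.97% of all genes, and with all 6 deposited columns the quasi-likelihood test called 6 against 6.07%. The fit of 6 columns counts SBS replicate 1 again as replicate 2, which understates the spread, so its p-values are too small. An unadjusted p under 0.05 in the lower direction was reached by 6 of the 9 genes and by 13.1% of all genes. With any single sham library left out, the quasi-likelihood test called 0 genes of the whole table. In those fits 5 or 6 of the 9 genes had an unadjusted p under 0.05 in the lower direction. So did 1025 to 1224 of the 12368 to 12372 genes tested. Without SBS replicate 3 it called 6 of the 9 genes and 8.35% of all genes lower, and without SBS replicate 1 it called 3 of the 9 and 1.86% of all genes. These 2 fits hold 1 SBS library each, and its spread is taken from the sham libraries.

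**Figure D1:**
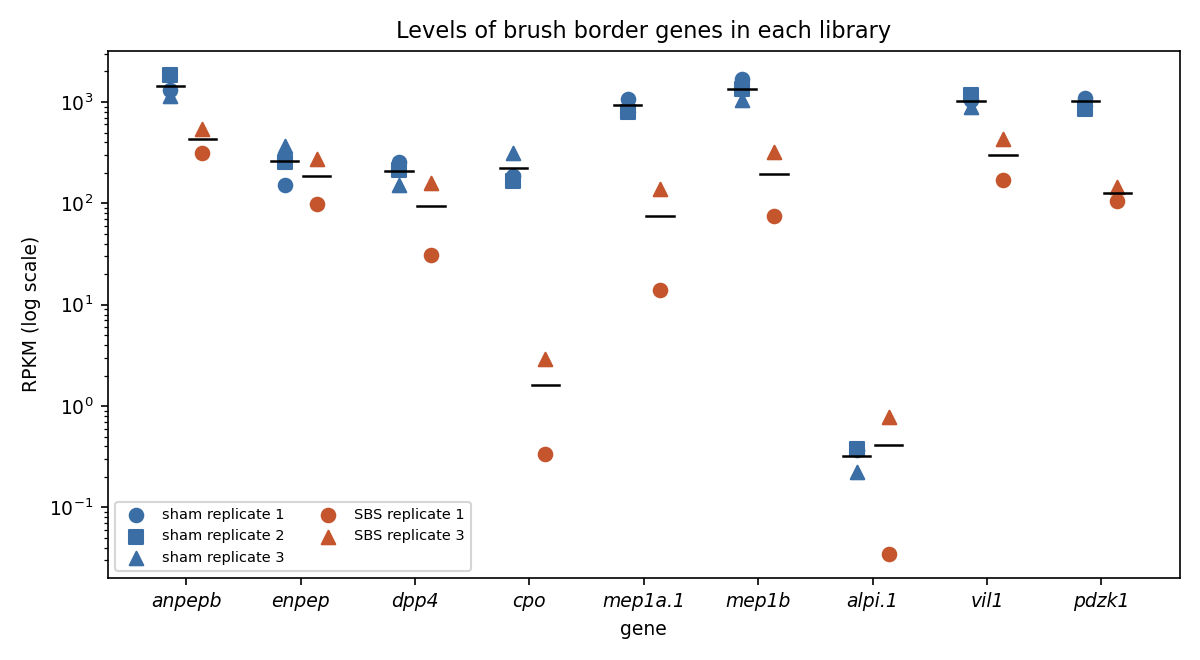
Level of each brush border gene in each library, in RPKM on a log axis. Points are the 3 sham libraries (blue) and 2 SBS libraries (orange), and black lines are group means. The separation is widest for cpo, at 165 to 315 RPKM in sham and 0.335 and 2.88 in SBS, whereas the groups overlap for enpep, dpp4 and alpi.1.

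Aminopeptidases remove residues from the amino end of peptides. The most abundant of the 9 genes in sham intestine was anpepb (ENSDARG00000103878, chromosome 25), which encodes an alanyl aminopeptidase known in mammals as aminopeptidase N or CD13. Its level was 1312, 1859 and 1149 RPKM in sham replicates 1, 2 and 3, and 315 and 540.3 RPKM in SBS replicates 1 and 3. The groups did not overlap, and sham exceeded SBS by 3.37-fold in the fitted value. The log2 fold change was -1.75 (standard error 0.49) and did not pass the quasi-likelihood test (adjusted p = 0.0923). It remained the most abundant of the 9 genes in SBS intestine.

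The glutamyl aminopeptidase gene enpep (ENSDARG00000057064, chromosome 13) encodes aminopeptidase A, which cleaves acidic residues and also angiotensin in mammals. Sham libraries held 152, 254 and 372 RPKM and SBS libraries 97.9 and 274. SBS replicate 1 lay under all sham libraries, while SBS replicate 3 lay within their range. The log2 fold change of -0.48 (standard error 0.60) was smaller than its error, with an adjusted p of 0.636 in the quasi-likelihood test. Its sham libraries spanned a 2.45-fold range, the widest among the 9 genes.

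Dipeptidyl-peptidase 4, encoded by dpp4 (ENSDARG00000079420, chromosome 22), releases dipeptides that end in proline or alanine, and in mammals it also inactivates incretin hormones. Sham libraries held 258, 214 and 151 RPKM. SBS replicate 1 was at 30.9 RPKM and SBS replicate 3 at 159, which is above the lowest sham library. The quasi-likelihood test gave an adjusted p of 0.347 for a log2 fold change of -1.13 (standard error 0.72). This value became -2.75 when SBS replicate 3 was left out and -0.39 when SBS replicate 1 was left out. Of the 19 alternative fits, only the one without SBS replicate 3 called dpp4 lower (adjusted p = 0.0206).

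Carboxypeptidase O removes acidic residues from the carboxyl end of peptides in mammals, complementing the pancreatic carboxypeptidases, and is anchored to the brush border membrane. The gene cpo (ENSDARG00000077688, chromosome 1) had 7476, 6855 and 12278 reads in sham replicates 1, 2 and 3, and 12 and 174 reads in SBS replicates 1 and 3. These counts correspond to 186, 165 and 315 RPKM in sham and to 0.335 and 2.88 RPKM in SBS. Expression fell by 7.08 on the log2 scale, or 136-fold (standard error 1.14 on the log2 scale), with an adjusted p of 0.0337 in the quasi-likelihood test. In the order of all genes tested by mean RPKM, cpo moved from rank 415 in sham to rank 9433 in SBS. The log2 fold change lay between -9.36 and -6.26 with any 1 library left out, but its adjusted p was between 0.096 and 0.118 when a sham library was missing. Since cpo was chosen for its fall, its change and its p are a description.

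Meprins are metalloproteases of the astacin family, made of alpha and beta subunits, which cleave peptides and also process mucins and cytokines in mammals. The alpha subunit gene mep1a.1 (ENSDARG00000029747, chromosome 20) was at 1067, 803 and 927 RPKM in sham replicates 1, 2 and 3. In SBS replicate 1 it was at 14.1 RPKM and in SBS replicate 3 at 137. Although the groups lay far apart, the SBS libraries differed from each other by 9.74-fold, and the log2 fold change of -3.62 (standard error 1.02) did not pass the quasi-likelihood test (adjusted p = 0.0936). The value was -2.77 without SBS replicate 1 and -6.05 without SBS replicate 3, and both of these fits called the gene lower.

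The beta subunit gene mep1b (ENSDARG00000037533, chromosome 20) was at 1693, 1337 and 1037 RPKM in sham and at 74.6 and 318 RPKM in SBS replicates 1 and 3. The groups did not overlap. Its adjusted p was 0.085 in the quasi-likelihood test, at a log2 fold change of -2.79 (standard error 0.74), and among the fits with 1 library left out it was called lower only without SBS replicate 3. The value was then -4.18, and it was -2.09 without SBS replicate 1. Within each library, the level of mep1a.1 relative to mep1b was 0.63, 0.601 and 0.894 in sham replicates 1, 2 and 3, and 0.189 and 0.431 in SBS replicates 1 and 3. This ratio, which does not depend on the scaling of libraries, was lower in both SBS libraries than in every sham library. An exact permutation test of 1 ratio in 3 sham against 2 SBS libraries was not run. Its two-sided p, taken as 2 times the p of 1 side, cannot go below 0.2.

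Intestinal alkaline phosphatase removes phosphate from nucleotides and from bacterial lipopolysaccharide at the cell surface. Of its copies, alpi.1 (ENSDARG00000015273, chromosome 22) is listed as a processed transcript and ranked 10876 of the genes tested by mean sham RPKM. It had 24, 25 and 14 reads in sham replicates 1, 2 and 3, and 2 and 76 reads in SBS replicates 1 and 3. SBS replicate 1 was the lowest library and SBS replicate 3 the highest, and the log2 fold change was 0.36 with a standard error of 1.097. The quasi-likelihood test gave an adjusted p of 0.852, and the sign turned without SBS replicate 3, at -3.14. The copy alpi.2 (ENSDARG00000053774, chromosome 22) was far more abundant, at 726, 790 and 549 RPKM in sham and 41.2 and 107 RPKM in SBS replicates 1 and 3. It fell by 3.21 on the log2 scale (standard error 0.57, adjusted p = 0.0406). How reads that match both copies were counted is not given in the sources used here, and the same holds for the meprin copies mep1a.1 and mep1a.2, so the split between copies is uncertain.

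Villin 1, encoded by vil1 (ENSDARG00000040466, chromosome 9), bundles and severs actin filaments and is a common marker of the brush border. Its level was 1045, 1160 and 894 RPKM in sham replicates 1, 2 and 3, and 169.5 and 434 RPKM in SBS replicates 1 and 3. Sham libraries differed by at most 1.30-fold and the SBS libraries by 2.56-fold. The log2 fold change was -1.78 (standard error 0.54) and the adjusted p was 0.106 in the quasi-likelihood test. Without SBS replicate 3 it was -2.61 and called (adjusted p = 0.0234), and without SBS replicate 1 it was -1.25 and not called.

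The scaffold gene pdzk1 (ENSDARG00000022261, chromosome 9) encodes a protein with several PDZ domains, which binds apical transporters. It was at 1101, 858 and 1080 RPKM in sham replicates 1, 2 and 3, and at 106 and 145 RPKM in SBS replicates 1 and 3. Expression fell by 3.02 on the log2 scale, or 8.09-fold (standard error 0.42 on the log2 scale), and the adjusted p was 0.0253 in the quasi-likelihood test. The SBS libraries differed by 1.37-fold, the smallest difference among the 9 genes. With any 1 library left out the log2 fold change stayed between -3.26 and -2.81, while the adjusted p was between 0.0833 and 0.122 without a sham library.

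**Figure D2:**
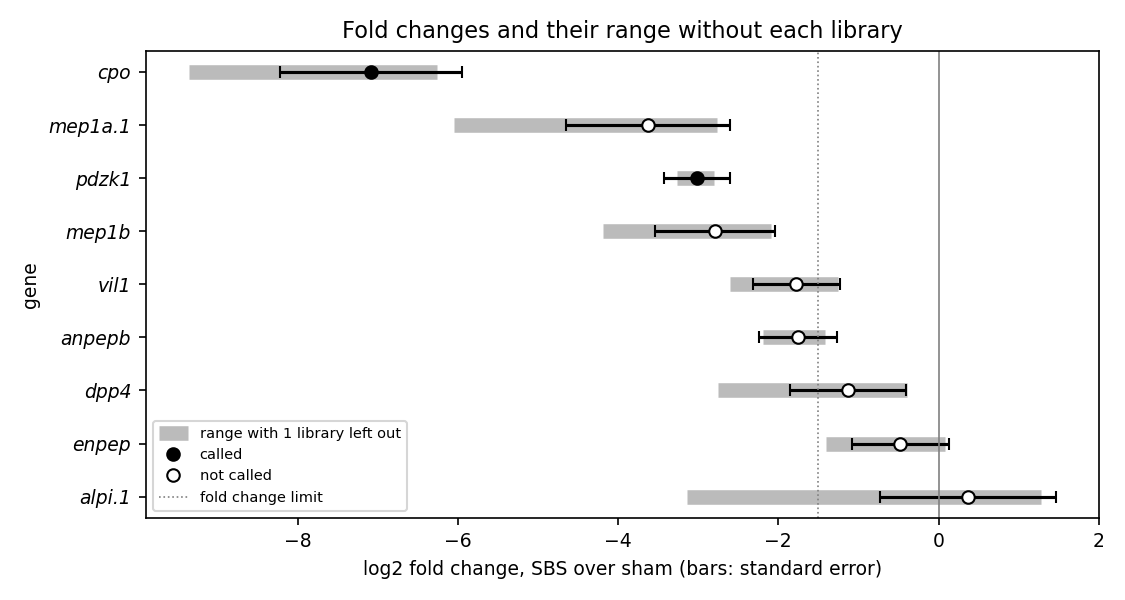
Log2 fold change of SBS over sham for the 9 brush border genes (x axis), with standard error bars and, in grey, the range when 1 library is left out. Filled points passed the quasi-likelihood test and fold change limit in the fit of all 5 libraries. The range is narrow for pdzk1, from -3.26 to -2.81, and wide for alpi.1, from -3.14 to 1.27.

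The SBS libraries also differed from each other. SBS replicate 1 was the lowest of the 5 libraries for 9 of the 9 genes, whereas this held for 33.6% of all genes tested. It lay below SBS replicate 3 in 52.5% of all genes tested and in 65.5% of the 255 genes called lower. Relative to the mean of the sham libraries on the log2 scale, SBS replicate 1 ranged from -1.31 for enpep to -9.31 for cpo. SBS replicate 3 ranged from -6.21 for cpo to 0.17 for enpep and 1.32 for alpi.1. Both SBS libraries lay at least 2 below the sham mean for cpo, mep1a.1, mep1b and pdzk1. SBS replicate 3 exceeded SBS replicate 1 by 1.37-fold for pdzk1 and 1.72-fold for anpepb, but by 9.74-fold for mep1a.1 and 8.61-fold for cpo. Reads on the 9 genes made up 1.38%, 1.67% and 1.09% of all reads on genes in sham replicates 1, 2 and 3. The share was 0.365% in SBS replicate 1 (Wilson 95% interval 0.362 to 0.368%) and 0.778% in SBS replicate 3 (0.775 to 0.78%). These intervals cover counting error only and take each count as a separate read. Every count of SBS replicate 1 was even, so its interval is too narrow if its reads were counted more than once.

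Villin is made by every enterocyte with a brush border, so each gene was also set against vil1 within its own library. A bulk sample cannot tell apart fewer enterocytes and less RNA per enterocyte. Relative to vil1, anpepb lay at log2 ratios of 0.33 to 0.68 in sham and at 0.89 and 0.32 in SBS replicates 1 and 3. The groups overlapped for this gene and for dpp4, which lay at -2.56 to -2.02 in sham and at -2.45 and -1.45 in SBS. In contrast, 4 of the 8 other genes had ratios in both SBS libraries below every sham library, namely cpo, mep1a.1, mep1b and pdzk1, where 1.84% of all genes tested had such ratios. Without cpo, which was chosen for its fall, these were 3 of 7 genes. The mean ratio of cpo moved from -2.27 to -8.11, that of mep1a.1 from -0.15 to -2.63, that of mep1b from 0.37 to -0.82 and that of pdzk1 from -0.03 to -1.13. For enpep the ratio was -2.78 to -1.27 in sham and -0.79 and -0.66 in SBS, above every sham library, as for 77.6% of all genes tested. The choice of vil1, which was itself at lower levels in both SBS libraries, sets the level against which these ratios are read.

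**Figure D3:**
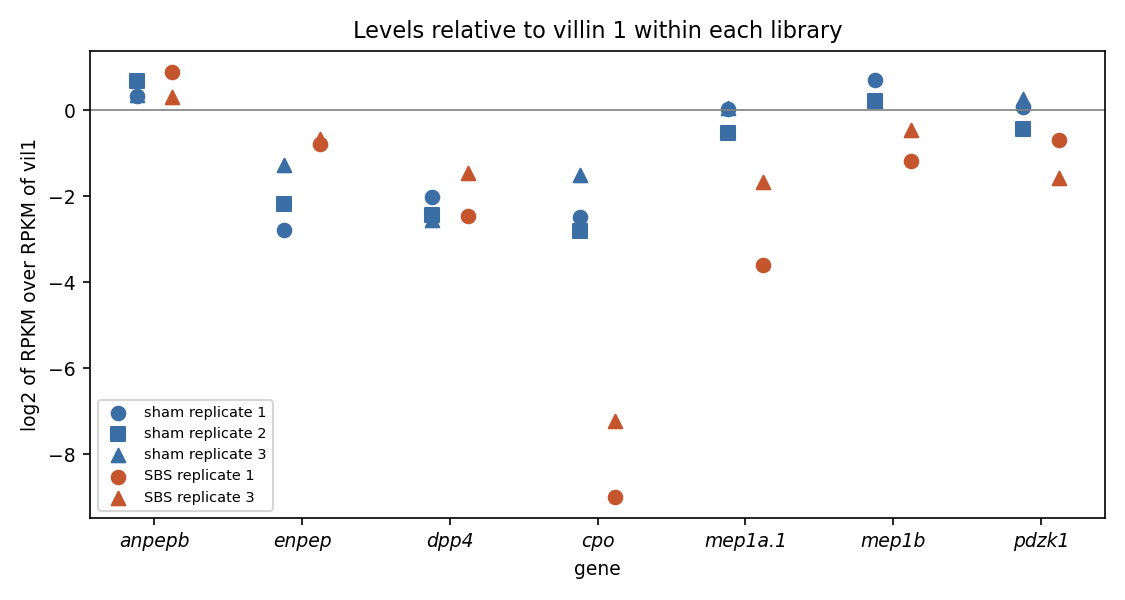
Log2 ratio of each gene's RPKM to that of vil1 in the same library (y axis) for 7 brush border genes, with sham libraries in blue and SBS libraries in orange. The ratio of cpo goes from between -2.82 and -1.51 in sham to -8.98 and -7.23 in SBS, anpepb overlaps between the groups, and alpi.1 is not drawn because of its low counts.

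In sham intestine the order of mean levels was anpepb (1439.9 ± 372 RPKM, SD, n = 3), mep1b (1356 ± 328), vil1 (1033 ± 133), pdzk1 (1013 ± 134) and mep1a.1 (933 ± 132). Neighbours in this order differed by less than the larger of their SDs, although the step from mep1b to vil1 exceeded the SD of vil1. A lower tier held enpep (259 ± 110.0), cpo (222 ± 81.2) and dpp4 (208 ± 53.6), again within their spread, and alpi.1 stood far below at 0.323 ± 0.0863 RPKM. In SBS intestine the order was anpepb (427 ± 159.6 RPKM, SD, n = 2), vil1 (302 ± 187), mep1b (196 ± 172), enpep (186 ± 124) and pdzk1 (125 ± 27.7). These were followed by dpp4 (94.9 ± 90.4), mep1a.1 (75.6 ± 87.0), cpo (1.61 ± 1.80) and alpi.1 (0.41 ± 0.53). Among neighbours in this order, only mep1a.1 and cpo did not overlap in the SBS libraries. The lowest value of mep1a.1 was 14.1 RPKM and the highest value of cpo was 2.88 RPKM.

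Other enzymes of the brush border were measured with a list of 30 gene names, of which 12 were in the table. Of these 12, 3 fell, where 2.06% of all genes were called lower, 0 rose, where 2.49% were called higher, and 10 had a log2 fold change under 0, with a list median of -1.53. With total reads alone 8 of the 12 were under 0 and the median was -0.77, against 0.82 over all genes. The ceramidase gene asah2 (ENSDARG00000012829, chromosome 12), whose product digests dietary sphingolipids, was at 231, 149 and 209 RPKM in sham and at 12.9 and 12.95 RPKM in SBS replicates 1 and 3. It fell by 3.93 on the log2 scale (standard error 0.39) with an adjusted p of 0.0171 in the quasi-likelihood test. Membrane aminopeptidase P, encoded by xpnpep2 and specific for bonds before proline, went from between 97.5 and 182 RPKM in sham to 18.1 and 29.2 in SBS, a fall of 2.50 on the log2 scale (adjusted p = 0.0415). The third called gene was alpi.2, described above.

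The second meprin alpha copy, mep1a.2, was at 299 to 421 RPKM in sham and 3.80 and 25.6 in SBS, and narrowly missed the threshold (log2 fold change -4.67, adjusted p = 0.0541). Its groups did not overlap. Of the 12 hydrolases, 6 had both SBS libraries below all sham libraries, where 24.3% of all genes had this pattern. Both lay above for 2, the dipeptidase gene dpep1 and the glutamyltransferase gene ggt1a, where 22.6% of all genes did. Neither of these 2 was called. For ggt1a only 1 read was counted in the sham libraries, against 572 and 19 reads in SBS replicates 1 and 3.

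The list of microvillus and scaffold genes held 40 names, of which 19 were in the table. Of these, 4 fell and 0 rose, beside the same 2.06% and 2.49% of all genes. Both SBS libraries lay below all sham libraries for 9 genes, where 24.3% of all genes had this pattern. They lay above for 2, tmigd1 and anxa13 (log2 fold change 1.81, not called), where 22.6% of all genes did. Scaled to total reads alone, 6 of the 19 had both SBS libraries below all sham libraries, against 7.64% of all genes. In the list 13 genes had a log2 fold change under 0 and the median was -0.74. With total reads alone 9 were under 0 and the median was 0.012, against 0.82 over all genes. The most abundant was slc9a3r1 (ENSDARG00000000068, chromosome 12), which encodes NHERF1, a PDZ scaffold that links apical membrane proteins to ezrin. It was at 293, 320.1 and 280.3 RPKM in sham and 61.0 and 51.4 RPKM in SBS replicates 1 and 3, a fall of 2.41 on the log2 scale (standard error 0.32), and the quasi-likelihood test gave an adjusted p of 0.0246. The ezrin gene ezra, which ties microvillar membrane to actin, fell by 1.95 on the log2 scale (adjusted p = 0.0343), from between 179 and 214 RPKM to 53.2 and 46.3. Its paralog ezrb was at 31.5 to 37.4 RPKM in sham and 42.3 and 27.2 in SBS, with overlapping groups.

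The other called genes of this list were myo5b and cobl. The first encodes a myosin motor that carries apical cargo, and it fell by 2.65 on the log2 scale (adjusted p = 0.0303 from the quasi-likelihood test), from between 49.6 and 62.0 RPKM in sham to 6.13 and 11.6 in SBS. The second encodes an actin nucleator, and it fell by 2.27 (adjusted p = 0.0253), from between 42.5 and 58.5 RPKM to 10.4 and 10.3. The actin bundler pls1 was at 156 to 211 RPKM in sham and 28.3 and 102 RPKM in SBS replicates 1 and 3, and its log2 fold change of -1.52 was not called (adjusted p = 0.165). Genes of the link complex between microvilli showed smaller differences, with -1.17 for ush1c (adjusted p = 0.228) and -0.74 for anks4b (adjusted p = 0.369). The gene tmigd1 had 0 reads in the sham libraries and 80 and 25 reads in SBS replicates 1 and 3. In both lists the median was the same with the genes of 3 or fewer sham reads, ggt1a and tmigd1, set at their lower bound or ratio. Each stays above the median of its list either way, so the median could not change. None of these calls remained in the quasi-likelihood fits without a sham library.

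**Figure D4:**
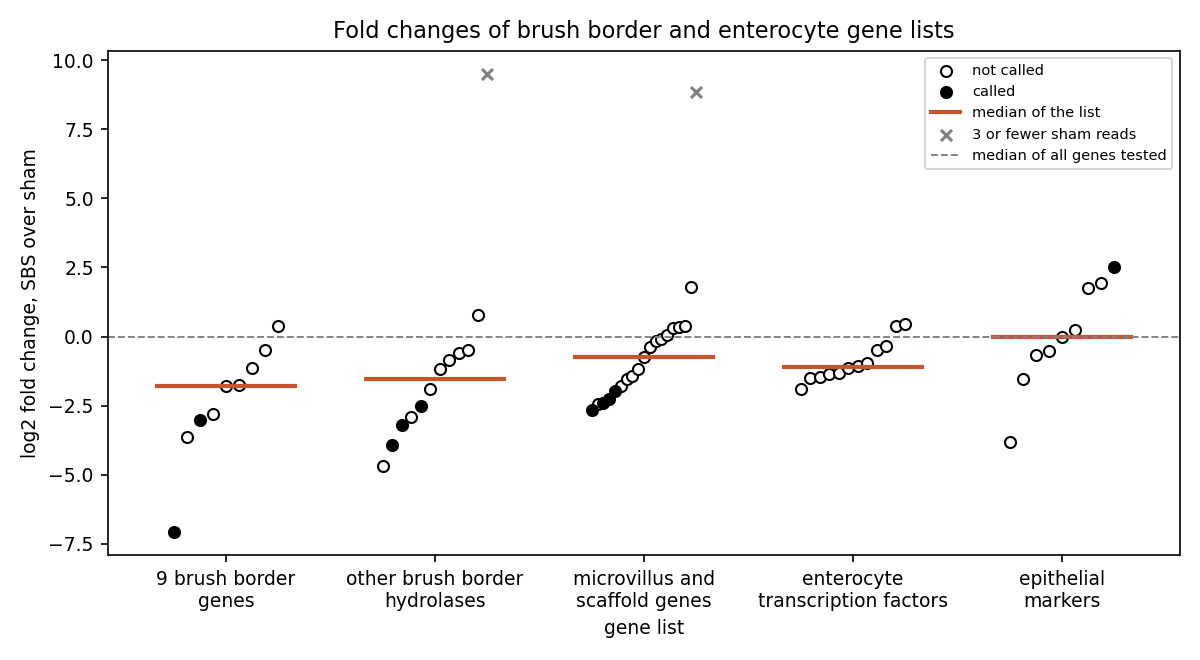
Log2 fold change of SBS over sham (y axis) for each gene of 5 lists, sorted within a list. Filled points were called, crosses mark genes with 3 or fewer sham reads, orange lines are list medians and the dashed line is the median of all genes tested. The median is -1.78 for the 9 brush border genes and -0.03 for the epithelial markers, whose range runs from -3.83 for fabp2 to 2.53 for epcam.

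Transcription factors that control enterocyte genes were measured with 13 names, of which 12 were in the table. Of these 12, 10 had a log2 fold change under 0 and 7 had both SBS libraries below all sham libraries, against 24.3% of all genes, but 0 were called by the quasi-likelihood test and 1 by the likelihood ratio test, where 2.06% and 5.78% of all genes were called lower. At an unadjusted p under 0.05 there were 4, all lower, against 13.1% of all genes. The median was -1.102. With libraries scaled to total reads alone, 8 of the 12 were under 0 and the median was -0.34, against 0.82 over all genes. Under that scaling 0 of the 12 had both SBS libraries below all sham libraries, against 7.64% of all genes. The factor hnf4a, a nuclear receptor that activates many brush border genes in mammals, was at 86.5, 123 and 166 RPKM in sham and at 14.1 and 53.4 RPKM in SBS replicates 1 and 3 (log2 fold change -1.89, adjusted p = 0.129). The duplicate hnf4b was at 70.0 to 93.6 RPKM in sham and 12.4 and 50.1 in SBS (log2 fold change -1.36, adjusted p = 0.199), and cdx1a at 93.0 to 160 and 58.0 and 111 (log2 fold change -0.48, adjusted p = 0.501).

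Markers of the epithelium and of other cells were also measured, beside 2.49% of all genes called higher and 2.06% called lower. Of all genes, 13.1% were lower at an unadjusted p under 0.05. The share of all genes higher at that level is not given here, so the counts of markers higher at that level are descriptions. Of 9 epithelial markers tested, epcam was called higher (log2 fold change 2.53, adjusted p = 0.0483 from the quasi-likelihood test), cdh1 was at 0.25 and cdh17 at -1.54, and the fatty acid binding protein gene fabp2 was at -3.83 (adjusted p = 0.0521). At an unadjusted p under 0.05, 3 were higher (epcam, krt18 at 1.74 and krt94 at 1.93) and 2 lower (cdh17 and fabp2). The summed level of these 9 markers was between 16344 and 17922 CPM in sham and 4011 and 5576 CPM in SBS replicates 1 and 3. Most of this sum in sham was fabp2, and the other 8 summed to between 5221 and 5829 CPM in sham and to 3680 and 4315 CPM in SBS. CPM are counts scaled to library size on the same TMM scale, without regard to gene length. Of 11 hepatocyte markers, 10 were called higher, and their sum went from between 36.2 and 54.0 CPM in sham to 18633 and 3882 CPM in SBS. All 11 had reads in every sham library. The 10 leukocyte markers summed to between 194 and 390.5 CPM in sham and to 1393 and 11534 CPM in SBS. Of these 10, 1 was called higher, the neutrophil peroxidase gene mpx, while 5 were higher and 0 lower at an unadjusted p under 0.05. Without mpx the sums were 191 to 382 CPM in sham and 1107 and 435 CPM in SBS. Of the lymphocyte genes, lck and cd8a were at -0.93 and -0.78 on the log2 scale. In the other direction, cd4-1 was at 0.43 and rag2, with few reads, at 1.55, and none of them was called. For exocrine pancreas the 15 markers summed to between 2005 and 54954 CPM in sham and to 3336 and 10821 CPM in SBS, for smooth muscle the 6 markers to between 2552 and 6064 CPM and to 819 and 4239 CPM, and 0 of either list were called. At an unadjusted p under 0.05, 2 smooth muscle markers and 0 pancreas markers were lower. Of the 15 pancreas markers, 14 had a log2 fold change under 0, with a list median of -1.57. For smooth muscle this held for 6 of the 6 markers, with a median of -1.44, and it held for 50% of all genes. Both SBS libraries lay below all sham libraries for 0 pancreas markers and 2 smooth muscle markers, against 24.3% of all genes. The 9 goblet and enteroendocrine markers summed to between 111 and 172 CPM in sham and to 324 and 379 CPM in SBS, and 0 were called, with 1 lower and 2 higher at an unadjusted p under 0.05. None of these markers was at 0 in any library, and their part in the lower levels of the brush border genes was not tested.

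Genes with the most similar profile were found by the Euclidean distance between centred log2 CPM over the 5 libraries, among genes with an average log2 CPM of at least 5. Closest to the mean of the 9 brush border genes were ak4 (distance 0.159), sccpdha (0.253), zgc:77739 (0.31), bco2l (0.329) and hsd17b4 (0.341). Of these, ak4, an adenylate kinase of mitochondria, was at 165, 162 and 141 CPM in sham and at 10.8 and 44.0 CPM in SBS replicates 1 and 3. None of the 5 was called, and their log2 fold changes ran from -2.54 for sccpdha to -2.14 for bco2l. The profiles closest to cpo were those of pvalb9 (distance 2.12), a parvalbumin, cyp2ad2 (2.47), a cytochrome P450, and mep1a.2 (2.71). The first of these was at 46.5, 164 and 91.1 CPM in sham and at 0.0653 and 0.33 CPM in SBS replicates 1 and 3. Within the 9 genes, the correlation of each profile with the mean of the others was lowest for alpi.1 (Pearson's r = 0.57) and enpep (0.63) and highest for mep1a.1 (1.00), over 5 libraries that share their scaling.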

How the data were processed

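RNA from proximal intestine was sequenced in 3 sham and 3 SBS samples. Quality control used FastQC and trimming used Trimmomatic, followed by alignment in STAR and counting in HTSeq, and the authors deposited raw counts per gene in 1 table. The paper names the genome danRer7 and the submitters' processing notes GRCz10, so no coordinates are given. Gene lengths were deposited by the authors, and other deposited columns (RPKM, fold changes, p-values) were not used.

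Of 12418 gene rows, 20 repeats of a gene name with equal counts were dropped and 17 fell under 10 counts over the 5 distinct libraries, leaving 12381. The 70 spike-in rows were left out of library sizes. TMM factors were 0.707 to 0.919 for sham libraries and 1.50 and 1.33 for the SBS libraries. Counts were tested with edgeR 4.0.16 (quasi-likelihood, R 4.3.3), and standard errors are the log2 fold change divided by the square root of F. P-values set the difference between the groups against the spread between these libraries. DESeq2 1.42.0, limma 3.58.1 on log2 RPKM and other settings served as alternatives. The test was checked on simulated counts.

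Named were the 9 genes, the called and the 3 most abundant genes of each list, and the genes of closest profile, with others of a list added after their values were seen. For 1 gene of a list the values are not reported here. The members and lists were chosen with earlier results of these data known. A search for promoter motifs was not run, as no sequences were at hand.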

Additional observations from a re-analysis of the deposited data

How the results depend on the processing

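Over 19 alternatives, cpo and pdzk1 kept their direction in all and their call in 15. They lost it with the replicate number as a block and without each sham library. Of the 15, the setting without a fold change limit used the main fit, so it could not lose a call. The fit of all 6 columns, also among the 15, counts 1 library again. With the replicate block the quasi-likelihood test of edgeR called 0 of the 9 genes, 0 of the other hydrolases, 0 microvillus and scaffold genes and 0 of all genes higher or lower, while 6 of the 9 genes and 1011 of all genes were lower at an unadjusted p under 0.05. In that fit the block of number 2 held a sham library alone, so little was left to estimate the spread. The numbers pair no samples as far as the labels say. Deviations of same-numbered libraries correlated at -0.09 and -0.11, and with the SBS numbers exchanged at 0.09 and 0.11. Deviations of only 2 SBS libraries mirror each other, so these correlations cannot decide whether samples were paired. DESeq2's Wald test called 6 of the 9 genes, 6 hydrolases, and 711 genes lower and 1177 higher in all, and edgeR's likelihood ratio test called 6, 6, 716 and 1215. All 6 columns, with SBS replicate 1 counted again as replicate 2, gave 6, 6, 753 and 1183. RUVg with 1 factor called 4 of the 9 genes lower and 505 of all genes higher. Scaling to total reads alone raised the median of all genes by 0.82 on the log2 scale, called 2095 genes higher, or 91.4% of calls against 54.7%, and 2 microvillus and scaffold genes lower. With 1 library left out, the lower calls ranged from 0 to 6 for the 9 genes, from 0 to 6 for hydrolases, from 0 to 9 for microvillus and scaffold genes and from 0 to 1031 for all genes, with 0 to 1299 higher. The zeros came without a sham library, where 1025 to 1224 genes were lower at an unadjusted p under 0.05. The highest values came when SBS replicate 3 was missing. For enpep the log2 fold change was 0.32 with total reads alone and ranged from -1.40 to 0.080 with 1 library left out, the highest without SBS replicate 1. That of alpi.1 was -0.27 with limma on log2(RPKM + 0.1), -0.40 with the replicate block, -0.11 with all 6 columns, and -3.14 (without SBS replicate 3) to 1.27 (without SBS replicate 1) with 1 library left out. The cause of these shifts was not tested.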

Other observations

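Of 144 genes tested whose description names a peptidase or a meprin, without inhibitors, 5 were called lower and 8 higher by edgeR's quasi-likelihood test, which called 2.06% of all genes lower and 2.49% higher, and the median log2 fold change was -0.06. The lowest log2 fold change apart from cpo, which was chosen as the lowest of the peptidases, was that of mep1a.2 (-4.67).

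Alanyl aminopeptidase has a second copy in zebrafish, anpepa, whose groups overlapped. Its log2 fold change was -1.18, and the quasi-likelihood test gave an adjusted p of 0.291. The level of anpepb relative to anpepa was 3.53, 5.19 and 5.89 in sham replicates 1, 2 and 3, and 5.45 and 2.51 in SBS replicates 1 and 3.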
